A study of Mus musculus with 6 samples.

Results

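Lymphocyte and natural killer (NK) cell genes were read out in bulk RNA sequencing libraries of the mouse adrenal, each made from unsorted gland. The set holds 32 genes taken from the table by symbol, of 54532 genes in all: 11 of B cells, 2 of plasma cells, 12 of T cells and 7 of NK and cytotoxic cells. Each of the 32 symbols matched 1 gene of the table, and each had at least 1 count in every library. Glands came from 2 groups of 3 samples, labelled WT and VEGF/LysM, in a series that asks what VEGF-A made by macrophages does for the gland. The labels give no allele, strain, age or treatment for either group, and do not say whether replicates are separate animals. LysM is the usual name of a gene whose promoter drives Cre in macrophages and neutrophils, but the labels do not describe the construct. Since the origin of the replicates is unknown, p values reflect how far these libraries scatter, and that scatter could be technical. No marker was used to sort cells, so every gland holds cortex, medulla, vessels, blood and whatever tissue stayed attached.

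B cells recognise antigen through a membrane immunoglobulin that signals through the paired chains Cd79a and Cd79b, and plasma cells secrete the same immunoglobulin. T cells recognise antigen through the T cell receptor, which signals through the Cd3 chains and the kinase Lck, and divide broadly into Cd4 helper and Cd8 cytotoxic cells. NK cells kill without a rearranged receptor, using the granzymes and perforin that activated Cd8 T cells also use. In a gland such as the adrenal these cells are sparse, and their transcripts in whole-tissue RNA come from resident cells, blood and attached lymphoid or fatty tissue together.

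The libraries held 16476879 to 18671950 counts. WT replicate 3 stood apart: 10 hepatocyte genes summed to 76199 CPM there (counts relative to library size, scaled by the TMM factors of edgeR) and to 19.2 to 282 CPM elsewhere, with 282 in VEGF/LysM replicate 3. On the same scale 8 kidney tubule genes summed to 37.6 CPM in WT replicate 3 and to 0.293 to 1.79 CPM in 4 other libraries, with VEGF/LysM replicate 3 between them. The gland's own cortex genes (9 genes, among them Star, Cyp11b1 and Nr5a1) were abundant in all 6 libraries, at 30534 CPM in WT replicate 3 and 45881 to 55669 in the rest. Results are given with and without WT replicate 3 for this reason.

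Sequences of 4 members are shown here because they represent the classes whose values part ways below: a B cell gene, a pair of T cell genes that lie side by side, and a cytotoxic gene. Each is the 250 bases before the RefSeq start site (GRCm38.p6), read 5′ to 3′ on the gene's strand. Bank1, a B cell adaptor protein, lies on the minus strand and its window is chr3:136326067-136326316. Cd3d and Cd3g, chains of the T cell receptor complex, start 1355 bases apart and are transcribed away from each other, with windows at chr9:44981536-44981785 (plus strand) and chr9:44980432-44980681 (minus strand). Gzmb, a granzyme, lies on the minus strand with its window at chr14:56262335-56262584. None of these 4 windows overlaps an annotated exon. Capitals mark matches to the motifs searched.
Bank1: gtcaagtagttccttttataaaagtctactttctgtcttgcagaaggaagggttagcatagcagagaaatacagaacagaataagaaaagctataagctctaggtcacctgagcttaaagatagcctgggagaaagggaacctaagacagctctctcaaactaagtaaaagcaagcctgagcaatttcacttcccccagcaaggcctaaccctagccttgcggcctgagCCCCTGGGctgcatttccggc
Cd3d: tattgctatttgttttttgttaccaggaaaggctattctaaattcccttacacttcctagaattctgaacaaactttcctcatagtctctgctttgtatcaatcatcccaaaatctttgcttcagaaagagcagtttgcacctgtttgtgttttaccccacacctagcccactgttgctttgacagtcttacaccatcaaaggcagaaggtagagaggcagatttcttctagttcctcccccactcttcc
Cd3g: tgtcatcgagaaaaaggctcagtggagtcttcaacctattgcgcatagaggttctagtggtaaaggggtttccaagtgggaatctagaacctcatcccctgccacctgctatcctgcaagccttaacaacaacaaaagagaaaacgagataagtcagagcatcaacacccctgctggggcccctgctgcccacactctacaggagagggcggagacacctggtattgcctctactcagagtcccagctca
Gzmb: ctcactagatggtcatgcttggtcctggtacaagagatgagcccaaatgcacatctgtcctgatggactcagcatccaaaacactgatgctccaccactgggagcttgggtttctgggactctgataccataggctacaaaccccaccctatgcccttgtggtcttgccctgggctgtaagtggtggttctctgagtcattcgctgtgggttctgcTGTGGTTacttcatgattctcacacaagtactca

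RefSeq windows were at hand for 20 of the 32 members, and 3 motifs were searched on both strands of each. The palindromic CCCNNGGG, the core of the motif of the B cell factor Ebf1, was found in 2 of 6 B cell members (Bank1 and Cd22), in 0 of 7 T cell members and in 1 of 6 NK and cytotoxic members (Prf1), against 11.8% of all 32851 windows. TGTGGTT, the core of the motif of Runx factors, was found in 0 of 6 B cell members, 1 of 7 T cell members (Lck) and 3 of 6 NK and cytotoxic members (Gzma, Gzmb and Ncr1), against 4.4% of all windows. The octamer ATGCAAAT, bound by Oct factors in immunoglobulin promoters, was in 0 of the 20 members and in 1.6% of all windows. Of the windows with a match, those of Cd22 and Prf1 overlapped annotated exons of their own gene, by 102 and 3 bases. Members were counted as genes, and Lck and Ncr1 had 2 windows each, while the percentages count single windows. The matches of different motifs did not overlap. A match describes these letters and does not show a bound site.

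Every B cell gene was highest in WT replicate 3 and, Ighm aside, had at most 109 counts in any other library. Cd79a, a signalling chain of the B cell receptor (chromosome 7, 24897381 to 24902197, GRCm38), had 73, 105 and 967 counts in WT replicates 1 to 3 and 62, 40 and 14 in VEGF/LysM replicates 1 to 3. Every VEGF/LysM value lay below every WT value, by a wide margin only for WT replicate 3. Its partner chain Cd79b had 51, 100 and 718 counts in WT and 46, 50 and 21 in VEGF/LysM. The WT value of 51 was next to the VEGF/LysM value of 50 in raw counts, and in scaled CPM the groups were also apart (lowest WT 2.90, highest VEGF/LysM 2.70). Pax5, the transcription factor that holds B cell identity (chromosome 4), had 48, 69 and 538 counts in WT and 40, 31 and 28 in VEGF/LysM. Cd22, an inhibitory co-receptor, had 43, 60 and 783 counts in WT and 24, 21 and 36 in VEGF/LysM. Blk, a B cell kinase of the Src family (chromosome 14), had 27, 33 and 264 counts in WT and 15, 15 and 4 in VEGF/LysM. These 5 genes (Cd79a, Cd79b, Pax5, Cd22 and Blk) were the members whose groups did not overlap.

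The heavy chain gene Ighm was far more abundant than the other B cell members and had the smallest excess in WT replicate 3. Ighm, the IgM heavy chain (chromosome 12, 113418558 to 113422730), had 4500, 2340 and 10390 counts in WT and 1312, 2327 and 903 in VEGF/LysM. WT replicate 2 and VEGF/LysM replicate 2 were almost level, so the groups overlapped in scaled CPM (120.6 and 122.3). Per kilobase of exon, Ighm was the most abundant member, with a mean of 66.7 CPM per kilobase over the libraries other than WT replicate 3, against 3.92 for Ccl5, the next. Ighm took 64.2% of the B cell counts of WT replicate 3 and 80.7% to 93.6% elsewhere, so a sum over B cell members mostly counts Ighm. Ighd, the IgD heavy chain spliced from the same transcript in mature naive B cells, had 22, 25 and 1285 counts in WT and 22, 15 and 7 in VEGF/LysM. WT replicate 3 exceeded the mean of WT replicates 1 and 2 by 75.2-fold for Ighd and by 4.10-fold for Ighm, in scaled CPM.

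Among the remaining B cell members, Ms4a1 (the antigen CD20) had 10 to 109 counts in the 5 other libraries and 436 in WT replicate 3. Fcmr, a receptor for IgM, had 1 to 15 and 415, and Bank1 had 8 to 46 and 263. Cr2, a complement receptor of mature B cells and follicular dendritic cells, had 1 to 7 counts and 131. It was the 1 member that did not pass the filter on low counts and so was not tested. WT replicate 3 was the highest library for 11 of 11 B cell members, while over all 16300 genes tested it was the highest for 28.4%. The median ratio of WT replicate 3 to the mean of WT replicates 1 and 2 was 13.8 over the B cell members and 0.993 over all genes tested.

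Plasma cell genes had a second high library. Jchain, the chain that joins IgM and IgA polymers (chromosome 5), had 363, 12 and 915 counts in WT and 16, 124 and 53 in VEGF/LysM. Mzb1, a chaperone of antibody secretion, had 94, 43 and 283 counts in WT and 28, 46 and 20 in VEGF/LysM. WT replicate 1 was the runner-up in both genes, and WT replicate 2 lay below the VEGF/LysM libraries for Jchain and within their range for Mzb1. The light chain gene Igkc, from the list of immunoglobulin constant genes, had the same order of its highest libraries, with 1636, 128 and 5728 counts in WT and 61, 434 and 120 in VEGF/LysM. Ighg1, a class-switched heavy chain, had 271, 1 and 2308 counts in WT and 0, 4 and 2 in VEGF/LysM. It did not pass the filter on low counts. The constant genes of the light and heavy chains resemble one another, so the split of reads between near-identical copies such as Iglc2 and Iglc3 is uncertain.

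T cell genes were also highest in WT replicate 3, in 12 of 12 members. Cd8a, a chain of the Cd8 co-receptor (chromosome 6), had 27, 49 and 672 counts in WT and 13, 14 and 61 in VEGF/LysM. Its partner Cd8b1 had 10, 12 and 435 counts in WT and 1, 11 and 19 in VEGF/LysM. In both genes VEGF/LysM replicate 3 was above at least 1 WT library, so the groups overlapped. Lck, the kinase that starts T cell receptor signalling (chromosome 4), had 61, 76 and 728 counts in WT and 50, 64 and 112 in VEGF/LysM. Trac, the constant region of the receptor's alpha chain, had 32, 25 and 352 counts in WT and 24, 13 and 41 in VEGF/LysM. Here too VEGF/LysM replicate 3 was the highest library after WT replicate 3.

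The 3 Cd3 genes were close to one another. Cd3d had 26, 26 and 189 counts in WT and 13, 9 and 27 in VEGF/LysM. Cd3g, its neighbour, had 20, 23 and 190 counts in WT and 10, 20 and 30 in VEGF/LysM. Cd3e, 27841 bases from Cd3d between start sites, had 9, 21 and 189 counts in WT and 12, 15 and 18 in VEGF/LysM. All 3 therefore held 189 or 190 counts in WT replicate 3 and at most 30 elsewhere. Cd4, the helper co-receptor that some macrophages and dendritic cells also carry, had 9, 29 and 322 counts in WT and 19, 39 and 61 in VEGF/LysM. Il7r, the interleukin 7 receptor, had 13 to 29 counts outside WT replicate 3 and 346 within it, Ccr7, the receptor that guides naive lymphocytes into lymph nodes, 7 to 20 and 392, Cd2, an adhesion receptor, 15 to 30 and 218, and Cd5, an inhibitory receptor of T cells and some B cells, 6 to 18 and 198. The ratio of WT replicate 3 to the mean of WT replicates 1 and 2 ran from 9.96 (Cd3d) to 60.3 (Ccr7), with a median of 20.7.

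The NK and cytotoxic genes did not share that pattern throughout. Gzmb had 31, 81 and 41 counts in WT and 14, 60 and 121 in VEGF/LysM. Gzma, another granzyme, had 37, 66 and 20 counts in WT and 25, 33 and 54 in VEGF/LysM. WT replicate 3 was thus the lowest library in raw counts for Gzma and in the middle for Gzmb. The NK receptors Ncr1 and Klrb1c had 11, 22 and 20 and 6, 15 and 21 counts in WT, and 7, 9 and 12 and 13, 11 and 13 in VEGF/LysM. In raw counts WT replicate 3 was below WT replicate 2 for Ncr1 and 6 counts above it for Klrb1c. In contrast Ccl5, a chemokine of cytotoxic and memory T cells and NK cells (chromosome 11), had 46, 95 and 553 counts in WT and 33, 45 and 119 in VEGF/LysM. Nkg7, a granule membrane protein of NK and Cd8 T cells, had 19, 39 and 191 counts in WT and 20, 20 and 38 in VEGF/LysM, and Prf1, perforin, had 7, 14 and 93 and 5, 11 and 14. The ratio of WT replicate 3 to the mean of WT replicates 1 and 2 was 9.18 to 12.3 for Nkg7, Ccl5 and Prf1 and 0.540 to 2.80 for Gzma, Gzmb, Ncr1 and Klrb1c, a grouping made after the values were seen. WT replicate 3 was the highest library in scaled CPM for 5 of 7 NK and cytotoxic members.

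**Figure D1:**
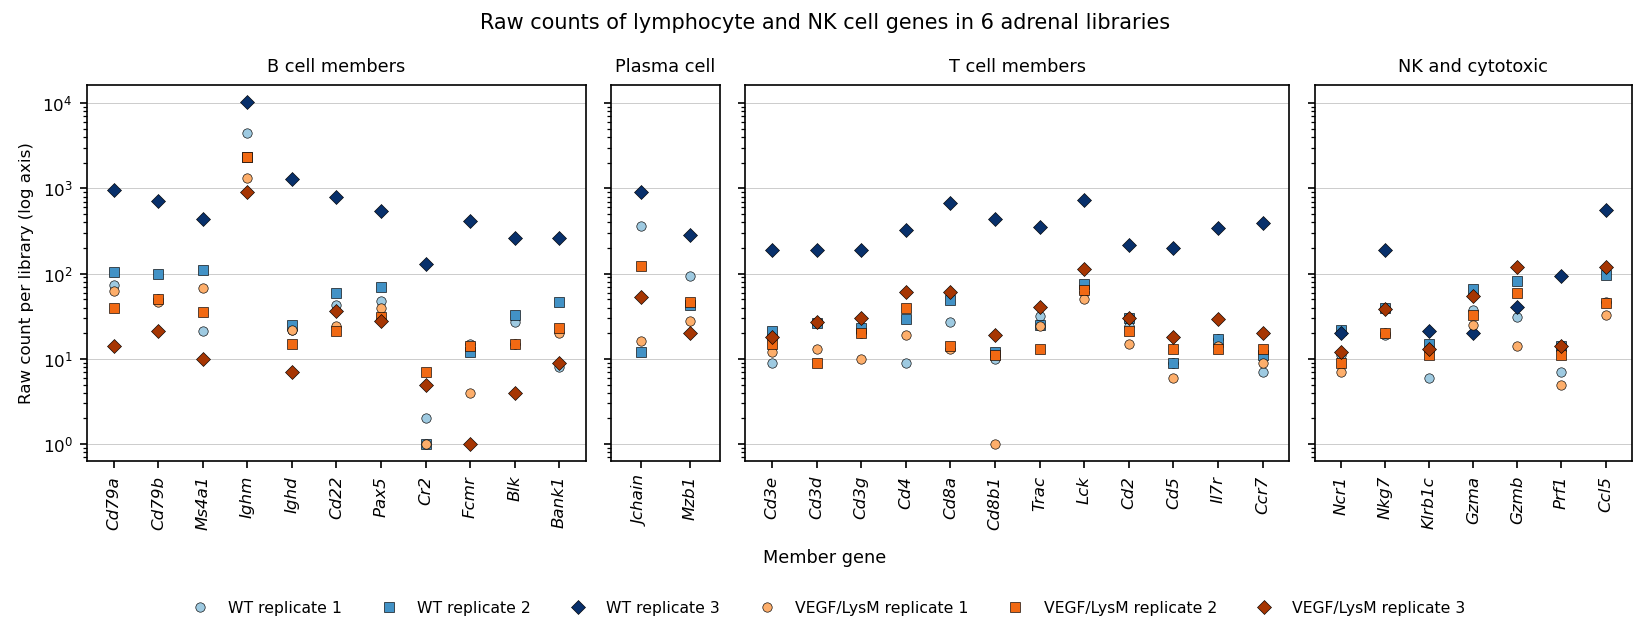
Raw counts (log axis) of the 32 members by gene in the 6 libraries, blue for WT and orange for VEGF/LysM, with diamonds for replicate 3 of each group. The dark blue diamonds of WT replicate 3 lie above all other points for every B, plasma and T cell gene, but not for Ncr1 (20 counts), Gzma (20 counts) and Gzmb (41 counts), while the brown diamonds of VEGF/LysM replicate 3 lie low among B cell genes and high among T cell genes.

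B and T cell genes were compared within each library by the B cell share of their summed counts. Because Ighm dominates the sum, the share is given first without Ighm and Ighd. It was 53.4% in WT replicate 1 (288 B and 251 T cell counts; exact 95% Clopper-Pearson interval 49.1% to 57.7%), 62.0% in WT replicate 2 (535 and 328; 58.7% to 65.2%) and 51.6% in WT replicate 3 (4515 and 4231; 50.6% to 52.7%). In VEGF/LysM it was 60.1% (280 and 186; 55.5% to 64.6%), 49.1% (236 and 245; 44.5% to 53.6%) and 21.5% (128 and 466; 18.3% to 25.1%). These intervals cover counting error only, and reads copied by PCR are not independent molecules. WT replicate 3, although its B and T cell counts were many times those of the rest, had a share within 49.1% to 62.0%, the range of the 4 libraries other than it and VEGF/LysM replicate 3. VEGF/LysM replicate 3 was the library that lay outside. With Ighm and Ighd included the shares were at least 89.7% in 4 libraries, 79.3% in WT replicate 3 and lowest, at 69.0%, in VEGF/LysM replicate 3. No p is given for these shares, since they are scores over chosen members.

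VEGF/LysM replicate 3 differed from its group in opposite directions for B and T cell genes. It lay above both VEGF/LysM replicates 1 and 2 in 12 of 12 T cell members and 7 of 7 NK and cytotoxic members, in scaled CPM, where 38.4% of all genes tested did so. Of the B cell members 8 of 11 lay below both, against 36.8% of all genes tested, and 1 (Cd22) lay above both. The median ratio to the mean of VEGF/LysM replicates 1 and 2 was 2.21 for T cell, 1.99 for NK and cytotoxic and 0.445 for B cell members, against 0.996 over all genes tested. The longer lists did not follow the B cell members as a whole: in that library 13 of 16 genes of B cell receptor signalling lay above VEGF/LysM replicates 1 and 2, while B cell transcription and surface genes were split, 8 of 18 above and 8 of 18 below. Among single genes, Spib, a B cell transcription factor, had 46, 29 and 2 counts in VEGF/LysM replicates 1 to 3, and Cxcl13, the chemokine that draws B cells into follicles, had 20, 51 and 1. Cd5l and Marco, genes of resident macrophages in spleen, liver and body cavities, had 67, 35 and 2 and 28, 24 and 2 counts in the same order, while Clec9a, a marker of cross-presenting dendritic cells, had 44, 71 and 239. These 5 genes were picked after their values were seen. Over the whole lists, 7 of 8 genes of red pulp and Kupffer macrophages lay below both other VEGF/LysM libraries and 7 of 8 dendritic cell genes above both. VEGF/LysM replicate 3 also held the hepatocyte and kidney transcripts given above and 9478 CPM of 7 medulla genes against 5426 to 6968 in the libraries other than WT replicate 3, and their part in these values was not tested.

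**Figure D2:**
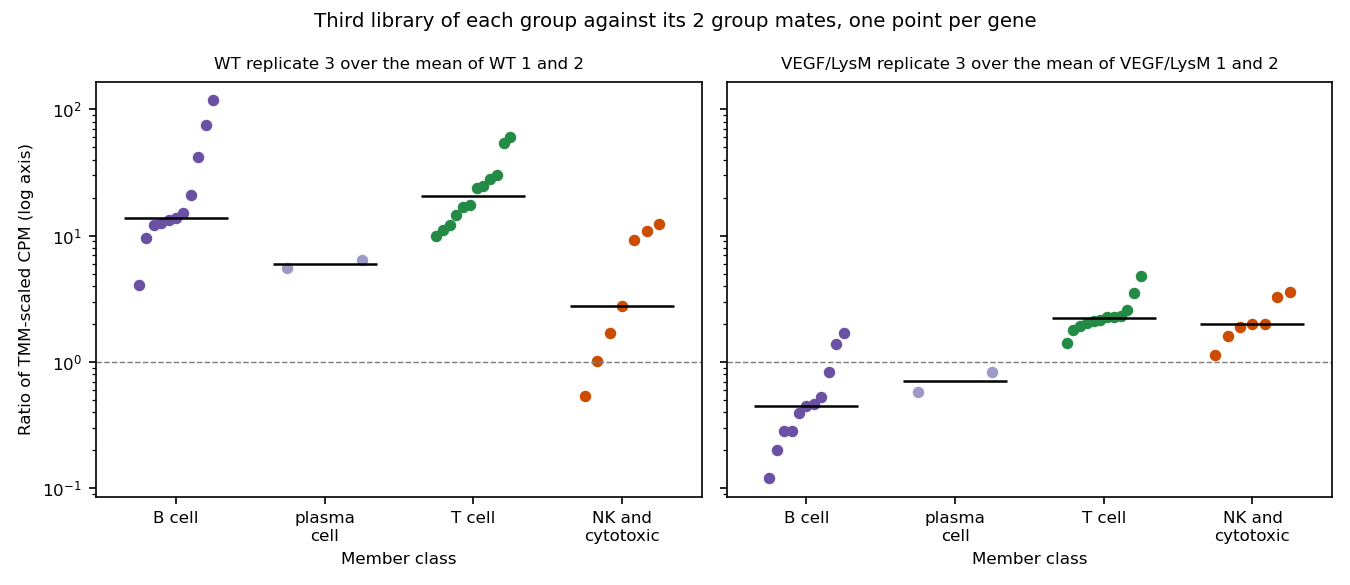
Ratio of TMM-scaled CPM (log axis) of replicate 3 to the mean of replicates 1 and 2 of the same group, with 1 point per member, black bars for class medians and a dashed line at a ratio of 1. In WT the medians were 13.8 (B cell), 20.7 (T cell) and 2.80 (NK and cytotoxic), and in VEGF/LysM they were 0.445, 2.21 and 1.99.

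**Figure D3:**
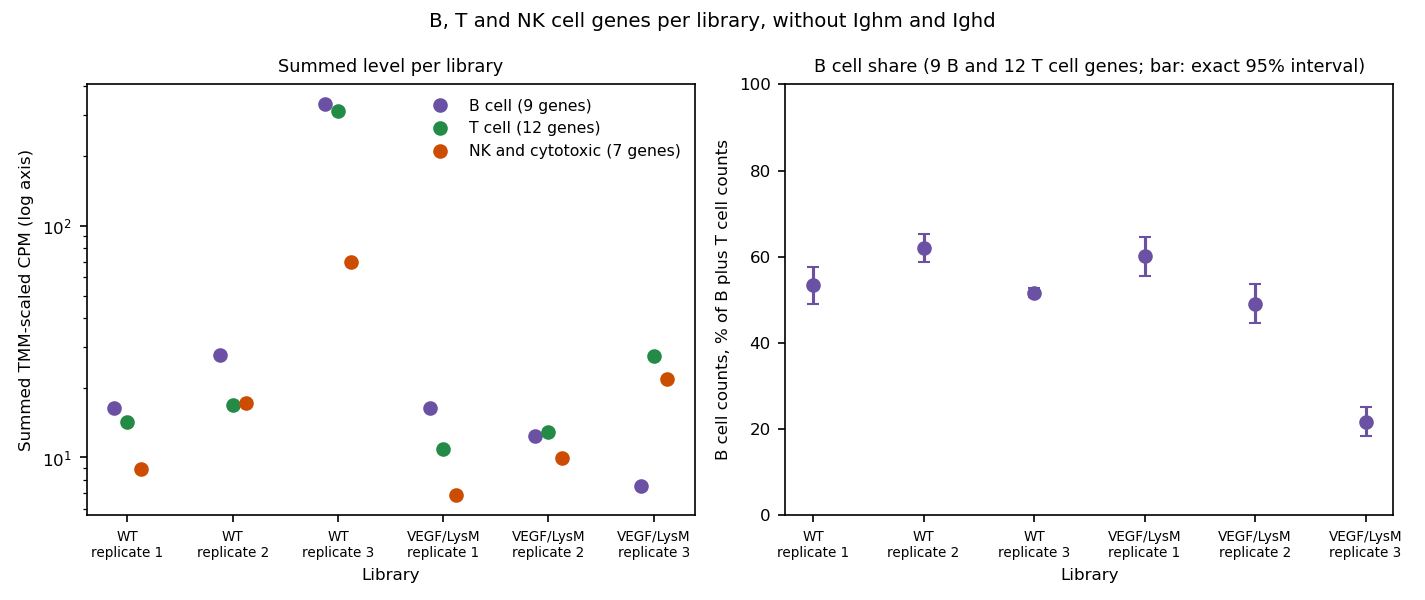
Summed TMM-scaled CPM (log axis) of 9 B cell, 12 T cell and 7 NK and cytotoxic genes per library (left) and the B cell share of B plus T cell counts with exact 95% intervals (right). The B and T cell sums of WT replicate 3 (335 and 314 CPM) stand above all others, while the share falls outside the range of the rest in VEGF/LysM replicate 3 (21.5%).

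Markers of other cell types were read beside the high values of WT replicate 3. Glycam1, a mucin of the high endothelial venules of lymph nodes, had 1243 counts there and 0 in each other library, and Ccl19, a chemokine of lymphoid stroma, had 206 and 0. The 9 lymphoid stroma genes summed to 72.2 CPM in WT replicate 3 and to 1.06 to 3.63 CPM elsewhere, with 6 of 9 highest in that library. The list also holds Clec4g and Ltf, and which tissue the summed transcripts came from was not tested. Tlx1 and Nkx2-5 of that list, factors of spleen mesenchyme, were at 0 counts in WT replicate 3. Of the 8 lymphoid precursor genes 3 were highest there, against 28.4% of all genes tested. Among these 3 was Il7r, which is also a T cell member. Rag1 and Rag2, the recombinases of developing lymphocytes, were at 0. The 8 genes of red pulp and Kupffer macrophages were highest there in 8 of 8 (271 against 63.0 to 99.1 CPM summed), including Clec4f, the Kupffer cell lectin, at 534 counts against 0 to 3. General macrophage genes summed to 705 CPM in WT replicate 3, within the 478 to 755 CPM of the others, and neutrophil genes to 2.08 CPM, within 0.586 to 4.10. Hepatocyte genes (10 of 10) and kidney tubule genes (8 of 8) were highest there as well. The part of any of these cell types in the lymphocyte values was not tested.

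Segments of the antigen receptor genes gave the same picture of WT replicate 3. The 185 immunoglobulin heavy chain variable genes summed to 1693 counts in it and to 53 to 177 elsewhere, with 77 of them detected against 15 to 34. Over the 160 kappa variable genes the sums were 2696 and 53 to 415, with WT replicate 1 again the next highest. Alpha chain variable genes of the T cell receptor, 128 in number, gave 110 counts from 38 genes in WT replicate 3 and 2 to 5 counts from 1 to 4 genes in each other library. Diversity of the receptors was not tested.

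Between the groups no member reached the threshold. With all 6 libraries edgeR's quasi-likelihood test called 0 of 31 tested members at an adjusted p of 0.05, and 0% of all 16300 genes. DESeq2 and limma-voom also called 0 members. Among the members with full statistics, DESeq2 gave no adjusted p for Cd79a, Ighd, Cd22, Pax5, Blk, Cd8a, Cd8b1, Trac and Lck. Without an adjusted p these genes could not be called in that fit, so the DESeq2 count does not cover them. Why it was missing was not tested. At an unadjusted p under 0.05 edgeR had 11 members, all lower in VEGF/LysM (8 B cell, 1 plasma cell and 2 T cell), DESeq2 had 12 and limma-voom 1, while 1.94% of all genes had such a p in edgeR and were lower. The groups did not overlap and VEGF/LysM was lower for 5 members, each of B cells, against 2.41% of all genes tested. The members share their source cells and are not independent of one another. In whole-gland RNA fewer cells of a type and less RNA per cell cannot be told apart.

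The log2 fold changes with 6 libraries were large and wide. Their median was -3.39 over 10 tested B cell members, -2.64 over 12 T cell members and -1.01 over 7 NK and cytotoxic members, against 0.0013 over all genes tested. All 22 B and T cell members tested were below 0, as were 49.7% of all genes. For Cd79a the WT mean was 27.1 ± 38.7 CPM (SD, n = 3), the VEGF/LysM mean was 2.19 ± 1.41 CPM, and the fitted log2 difference was -3.62 ± 1.23 (SE; 95% interval -6.54 to -0.70; adjusted p = 0.999, edgeR). Cd8a averaged 18.0 ± 27.6 and 1.70 ± 1.64 CPM (-3.40 ± 1.45), and Gzmb 2.99 ± 1.21 and 3.70 ± 3.19 CPM (0.30 ± 0.72). For most members the SD in WT exceeded the mean, with WT replicate 3 as the high value.

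Without WT replicate 3 the group difference shrank for B cell genes and was near 0 for T cell and NK genes. edgeR again called 0 members, and 0.006% of 16659 genes (1 gene). The median log2 fold change was -0.87 over the 10 B cell members, all of them below 0, and 0.026 over the 12 T cell members, of which 6 were below and 6 above 0. It was -0.0078 over the 7 NK and cytotoxic members (4 below 0) and 0.0080 over all genes, of which 48.5% were below 0. Both plasma cell genes stayed below 0. Erythrocyte genes were lower beside them: the 7 genes summed to 608, 209 and 407 CPM in WT and 173, 89.5 and 157 CPM in VEGF/LysM replicates 1 to 3, so the groups did not overlap. Of these 5 were tested (4 globin genes and Alas2, the haem synthesis enzyme of red cells). Their median log2 fold change was -1.42 with 6 libraries and -1.62 without WT replicate 3, with 5 of 5 below 0 and 0 past the adjusted threshold in both. The part of blood content in the B cell values was not tested. At an unadjusted p under 0.05 there were 3 members, Ighm, Blk and Mzb1, all lower in VEGF/LysM, against 0.786% of all genes. The same 5 B cell genes did not overlap and were lower, but with 2 against 3 libraries 6.9% of all genes tested did so.

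All 10 tested B cell members lay between -1.34 and -0.55 without WT replicate 3. Ighm had a log2 fold change of -1.16 ± 0.37 (SE), with a 95% interval of -1.99 to -0.33 and an adjusted p of 1 over all genes. For Blk it was -1.34 ± 0.58 and for Cd79a -1.13 ± 0.52, with intervals of -2.67 to -0.015 and -2.32 to 0.056. Cd79b stood at -0.88 ± 0.44, Cd22 at -0.85 ± 0.42 and Pax5 at -0.75 ± 0.38. Ighd, whose 6-library value was -5.28 ± 1.84, stood at -0.61 ± 0.57. The plasma cell genes Jchain and Mzb1 stood at -1.58 ± 1.05 and -1.11 ± 0.48. The Jchain value rests on WT replicate 1 (363 counts against 12 in WT replicate 2). Ighm and Mzb1 were also higher in WT replicate 1 (4500 and 94 counts) than in WT replicate 2 (2340 and 43). For both, WT replicate 2 lay within the VEGF/LysM range in scaled CPM.

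The T cell and cytotoxic genes were spread about 0 without WT replicate 3. Lck turned from -2.25 ± 1.10 to 0.21 ± 0.41, and Cd4, named here after its values were seen, from -1.93 ± 1.30 to 1.14 ± 0.64. Cd8a stood at -0.27 ± 0.70, Cd8b1 at -0.027 ± 0.87 and Trac at -0.058 ± 0.56. The 95% interval of Lck was -0.71 to 1.13 and that of Cd8a -1.86 to 1.31, so changes of about 1 log2 unit in either direction lie inside the latter. Ccl5 stood at -0.0078 ± 0.57, Nkg7 at -0.069 ± 0.52 and Gzmb at 0.30 ± 0.73. The gap between the classes was smaller without VEGF/LysM replicate 3: with both replicate 3 libraries left out, the medians were -0.62 for B cell, -0.49 for T cell and -0.56 for NK and cytotoxic members. In that fit 10 of 10 B cell, 9 of 11 T cell and 6 of 7 NK and cytotoxic members were below 0, and 49.9% of all genes. Whether B and T cell genes differ in their response was not tested.

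**Figure D4:**
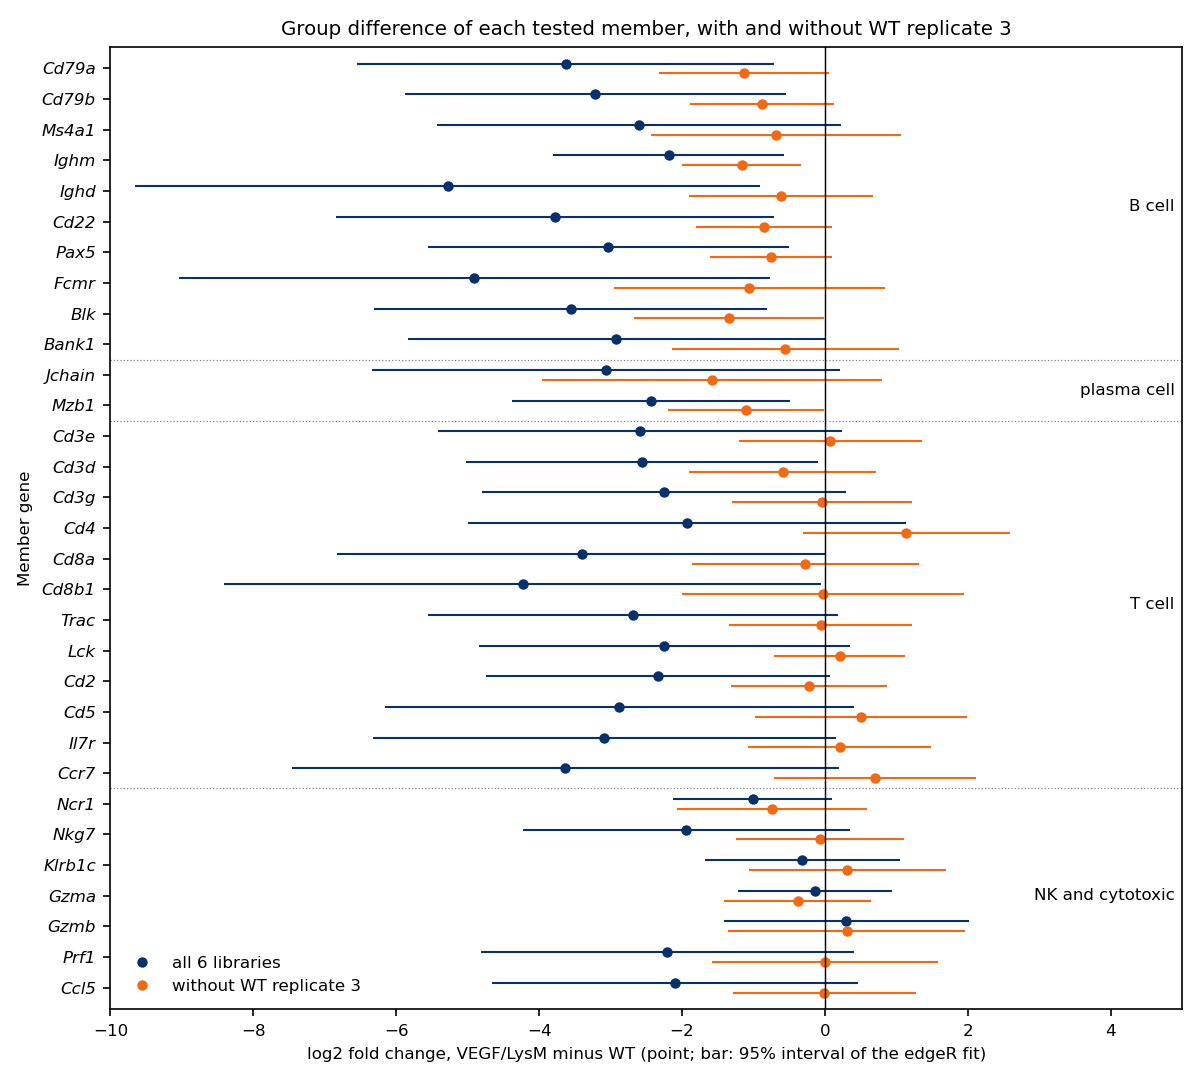
Log2 fold change of VEGF/LysM against WT for the 31 tested members, with 95% intervals, from all 6 libraries (blue) and without WT replicate 3 (orange). Without that library the B cell genes lie between -1.34 and -0.55 and the T cell genes between -0.59 and 1.14.

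Other genes of the same pathways were read from lists, and none passed the test in either fit. WT replicate 3 was the highest library for 16 of 16 genes of B cell receptor signalling, 13 of 18 B cell transcription and surface genes, 6 of 8 plasma cell secretion genes, 14 of 15 lymphoid homing and chemokine genes, 10 of 10 immunoglobulin constant genes, 17 of 18 genes of T cell receptor signalling, 12 of 13 T cell transcription genes and 12 of 19 NK receptor and transcription genes. Over all genes tested WT replicate 3 was the highest library for 28.4%. The most abundant gene of each signalling list varied less. Lyn, a kinase of B cells and myeloid cells, had 740, 1022 and 861 counts in WT and 887, 801 and 978 in VEGF/LysM, and Fyn, its relative in T cells and neurons, had 1004, 1324 and 858 and 1207, 1049 and 1071. Ptprc, the pan-leukocyte antigen CD45, had 314, 498 and 2138 counts in WT and 360, 290 and 701 in VEGF/LysM. Its level was thus high in both replicate 3 libraries.

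The median log2 fold change of the lists was negative with 6 libraries and close to 0 for most without WT replicate 3. For B cell receptor signalling it was -1.04 with 16 of 16 genes below 0, and -0.066 with 10 of 16. B cell transcription and surface genes gave -0.94 (16 of 16) and -0.37 (14 of 16), and immunoglobulin constant genes -2.95 (5 of 5) and -1.47 (4 of 5). T cell receptor signalling gave -1.89 (16 of 16) and 0.058 (6 of 16), T cell transcription -0.65 (10 of 11) and -0.0027 (6 of 11). NK receptors and transcription gave -1.34 (8 of 9) and -0.025 (6 of 10), lymphoid homing and chemokines -1.03 (10 of 10) and 0.095 (5 of 10), and plasma cell secretion -0.33 (5 of 7) and 0.00031 (3 of 7). Without WT replicate 3 the immunoglobulin constant genes had the lowest of these 8 medians, followed by the B cell transcription and surface genes. Igkc had -3.97 ± 1.41 (SE) and -2.15 ± 0.93, and Irf8, a factor of B cells and macrophages, -0.37 ± 0.19 and -0.33 ± 0.20. In the fit without WT replicate 3 the values of Igkc, Iglc1 and Iglc2 rest on WT replicate 1. Igkc had 1636 and 128 counts in WT replicates 1 and 2, Iglc1 67 and 6, and Iglc2 147 and 28. Iglc3, at the median of -1.47, had 14 and 13 counts there and 5, 8 and 1 in VEGF/LysM. Igha stood at 0.26, with 110 and 7 counts in WT replicates 1 and 2 and 151, 56 and 0 in VEGF/LysM. The 10 constant genes summed to 136 CPM in WT replicate 1, to 9.69 CPM in WT replicate 2 and to 11.7 to 29.8 CPM in VEGF/LysM. WT replicate 2 was thus the lowest library in that sum.

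Further genes were named for their abundance, and their log2 fold changes without WT replicate 3 ran from -0.54 to 0.31. Inpp5d, a phosphatase that dampens receptor signals, stood at 0.06 ± 0.24. Ly6d, a surface protein of early B cells that had 1652 to 4716 counts per library, stood at -0.54 ± 0.23 (95% interval -1.05 to -0.025). Unlike the B cell members, Ly6d was low in WT replicate 3, at 0.541 of the mean of WT replicates 1 and 2 in scaled CPM. The cells that its transcripts came from were not tested. Xbp1, the secretory factor that most cells use, stood at 0.31 ± 0.16. Its VEGF/LysM values were all above the remaining WT values, as for 1247 of all 16659 genes tested in that fit. With 6 libraries the groups of Xbp1 overlapped. Sdc1, a proteoglycan of plasma cells and hepatocytes, stood at -0.04 ± 0.21. Sdc1 had 2519 counts in WT replicate 3 and 243 to 394 elsewhere. Ets1 and Klf2, factors of lymphocytes and endothelium, stood at 0.04 ± 0.17 and -0.13 ± 0.19. Il2rb, a receptor chain of NK and T cells, stood at -0.04 ± 0.49, Fcgr3, an Fc receptor of NK cells and macrophages, at 0.11 ± 0.26, Ltbr, the lymphotoxin receptor of stroma, at -0.02 ± 0.14 and S1pr1, the receptor for lymphocyte exit that endothelium also carries, at 0.24 ± 0.25. Each had an adjusted p of 1 in edgeR's test.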

How the data were processed

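The deposited table holds raw counts per gene for 6 libraries, whole numbers with no normalisation. kallisto, DESeq2 (version 1.36.0) and mm10 are named per the submitters' processing notes. Their roles, the annotation and how the authors reached whole numbers of counts were not stated. Per the labels' protocols, libraries followed Smart-seq2, which does not mark strand, so overlapping genes cannot be told apart. Columns were matched to samples by title. The 32 members and all lists were chosen with earlier results of these data known. Some lists share genes, such as Cxcl13, Ccl19 and Ccl21a, which are in both the lymphoid stroma and the lymphoid homing list.

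Counts were filtered by filterByExpr (minimum count 10, minimum total 15), scaled by TMM and tested with edgeR 4.0.16 (R 4.3.3) quasi-likelihood on all genes, group as the only term, with Benjamini-Hochberg adjustment and a threshold of 0.05; the steps were tested on simulated counts. A negative log2 fold change means a lower level in VEGF/LysM. Alternatives were other scalings and filters, DESeq2 1.42.0, limma-voom (limma 3.58.1), a replicate block and left-out libraries. Coordinates and exon lengths are from GENCODE M21 (GRCm38). Genes given full statistics were the most abundant of each class (4 B cell, 2 plasma cell, 4 T cell, 3 NK and cytotoxic), those past the threshold, and those whose groups do not overlap; from each list, the 2 most abundant. Exceptions chosen after their values were seen are marked as such. Depth was 16476879 to 18671950 counts, so genes with few counts carry counting error of their own. No library pair agreed within sampling noise (chi-square per degree of freedom 15.7 or more). With 3 libraries in each group the smallest p of an exact permutation test is 0.1, so no such test was run on single values.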

Additional observations from a re-analysis of the deposited data

How the results depend on the processing

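Of the single libraries, WT replicate 3 moved the class medians most when left out. Over the fits that left out 1 library each, the median log2 fold change ran from -3.88 to -0.87 for B cell, from -3.18 to 0.026 for T cell and from -1.29 to -0.0078 for NK and cytotoxic members, with the values nearest 0 (and the turned sign of the T cell median) in the fit without WT replicate 3. Without both libraries that held liver transcripts the medians were -0.62, -0.49 and -0.56. The count of genes called ran from 0 to 1 over these fits. The members called were 0 in every fit run, while those with an unadjusted p under 0.05 ran from 0 (without VEGF/LysM replicate 3) to 26 (without WT replicate 1). DESeq2 gave no adjusted p for some members, Cd79a and Cd8a among them, and so could not call them.

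Among the 16 members with full statistics, directions turned for Lck without WT replicate 3 (0.21; -2.74 at the other end of the fits without 1 library) and for Gzmb with limma-voom (-0.089), without VEGF/LysM replicate 3 (-0.58; up to 0.76 without VEGF/LysM replicate 1) and without both libraries with liver transcripts (-0.56). The cause was not tested. Of all 31 tested members, 8 turned from below to above 0 without WT replicate 3 (6 T cell, and Klrb1c and Prf1). The B and T cell medians were -2.09 and -1.25 with limma-voom and -2.11 and -1.51 with the replicate block. The block also turned Gzmb (-0.049), called 0 genes and left 5 members at an unadjusted p under 0.05. Deviations of same-numbered samples correlated at 0.064, -0.014 and 0.25, so the numbers were not taken to pair the samples, and only replicate 3 correlated best with its own number in both groups.

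The B cell share without Ighm and Ighd was 53.4%, 62.0% and 51.6% in WT and 60.1%, 49.1% and 21.5% in VEGF/LysM. With Ighm and Ighd, the share moved from 89.8% and 79.3% by counts to 91.5% and 81.4% by CPM per kilobase of exon in WT replicates 2 and 3, and from 91.3% and 69.0% to 93.3% and 73.1% in VEGF/LysM replicates 2 and 3. The WT mean of the share by counts with both genes was 88.1%, and 92.4% without WT replicate 3. Depth limits members with few counts outside WT replicate 3, such as Cr2 (1 to 7) and Prf1 (5 to 14).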
